A study of Homo sapiens with 18 samples.

Results

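One-replicate TLE3 peaks are chromatin regions called in the longer TLE3 list of a cell line that overlapped no peak of the line's other TLE3 replicate. They were chosen by their coordinates and by those of the other replicate's peaks, as peaks of MDA-MB-453 TLE3 replicate 1 free of any replicate 2 peak and peaks of T47D TLE3 replicate 2 free of any replicate 1 peak, where an overlap was 1 bp or more. There were 53877 of them among 104089 peaks of both longer lists and 1134194 peaks of all 12 lists. MDA-MB-453 gave 20918 of its 42698 peaks (48.99%) and T47D gave 32959 of its 61391 peaks (53.7%). The other 21780 and 28432 peaks of the same lists overlapped the other replicate and are called shared peaks. Because the lists themselves chose the members, peak score and width are given as a description with no test.

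The study mapped TLE3 and FOXA1 by chromatin immunoprecipitation and sequencing in 3 established luminal breast cancer lines, with 2 biological replicates per factor and line, to see how far the binding of both factors coincides. T47D is an estrogen receptor positive line, MDA-MB-453 an androgen receptor positive and SKBR3 a HER2 amplified one, and the labels give no treatment and no genotype beyond the line. TLE3 chromatin received an additional crosslinker before formaldehyde, whereas FOXA1 chromatin did not. The 6 input libraries were not used here, and nothing labels the replicates of different lines as made together.

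TLE3 is a corepressor of the Groucho family. It does not read DNA itself but is recruited by transcription factors, and it carries histone deacetylases to the sites they occupy. FOXA1 is a forkhead pioneer factor that opens chromatin for steroid receptors and keeps the luminal programme of breast epithelium. In background knowledge, Groucho proteins bind the forkhead, TCF/LEF, RUNX and HES families among others.

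The promoters that some of the highest ranked one-replicate peaks overlapped ranged from A and T rich ones to runs of the GC box. The 250 bases before an annotated start are printed 5′ to 3′ on the gene's strand, from RefSeq, build GRCh38.p14, with matches to the motifs searched in capitals.
AGR2 (MDA-MB-453, chr7:16805000-16805249, minus strand): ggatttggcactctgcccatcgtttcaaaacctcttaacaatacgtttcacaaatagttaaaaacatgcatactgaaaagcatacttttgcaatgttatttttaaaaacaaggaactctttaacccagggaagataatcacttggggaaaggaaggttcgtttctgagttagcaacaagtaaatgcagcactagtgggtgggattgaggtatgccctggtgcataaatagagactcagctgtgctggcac
STS (MDA-MB-453, chrX:7251994-7252243, plus strand): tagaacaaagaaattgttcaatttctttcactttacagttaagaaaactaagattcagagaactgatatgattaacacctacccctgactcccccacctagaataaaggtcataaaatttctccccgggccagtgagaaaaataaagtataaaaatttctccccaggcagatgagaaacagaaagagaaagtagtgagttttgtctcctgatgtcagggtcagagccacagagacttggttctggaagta
FLOT1 (MDA-MB-453, chr6:30742688-30742937, minus strand): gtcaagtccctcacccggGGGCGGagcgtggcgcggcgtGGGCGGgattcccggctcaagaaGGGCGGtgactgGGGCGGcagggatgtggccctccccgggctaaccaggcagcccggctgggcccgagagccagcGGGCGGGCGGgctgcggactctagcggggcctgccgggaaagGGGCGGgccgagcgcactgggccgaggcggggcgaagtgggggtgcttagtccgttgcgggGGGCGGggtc
BROX (T47D, chr1:222712314-222712563, plus strand): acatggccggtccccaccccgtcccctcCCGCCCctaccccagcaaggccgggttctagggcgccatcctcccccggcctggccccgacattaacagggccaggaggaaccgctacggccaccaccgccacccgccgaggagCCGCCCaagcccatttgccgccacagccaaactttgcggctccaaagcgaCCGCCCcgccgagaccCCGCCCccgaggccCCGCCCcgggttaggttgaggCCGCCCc
PHC2 (T47D, chr1:33431096-33431345, minus strand): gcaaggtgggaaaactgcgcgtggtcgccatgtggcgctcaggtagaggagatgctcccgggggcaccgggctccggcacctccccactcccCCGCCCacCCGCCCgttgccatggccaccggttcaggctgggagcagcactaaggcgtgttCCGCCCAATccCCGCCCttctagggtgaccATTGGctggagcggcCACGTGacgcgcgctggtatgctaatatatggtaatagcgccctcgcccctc
VAV3 (T47D, chr1:107688500-107688749, minus strand): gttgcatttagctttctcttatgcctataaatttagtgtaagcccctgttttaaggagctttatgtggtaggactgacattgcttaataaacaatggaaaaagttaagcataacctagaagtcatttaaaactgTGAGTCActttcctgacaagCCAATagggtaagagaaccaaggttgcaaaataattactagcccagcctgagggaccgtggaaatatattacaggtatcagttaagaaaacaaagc
The motifs, searched on both strands with overlapping matches counted, were forkhead TGTTTAC, AP-1 TGACTCA, RUNX TGTGGTT, TCF/LEF CTTTGAA, ETS CCGGAAG, CRE TGACGTCA, E-box CACGTG, NFY CCAAT, SP/KLF GGGCGG, and the NRF1 palindrome. AGR2, a luminal disulfide isomerase of the endoplasmic reticulum, and STS, the steroid sulfatase, here at a start inside the gene, held none of them, and their GC contents were 40.4% and 38.8%. FLOT1, which encodes a membrane raft protein, held 8 SP/KLF matches at a GC content of 76.8%, and BROX held 6. PHC2, a Polycomb subunit, held 7 matches, with 4 for SP/KLF, 2 for NFY, of which 1 overlaps an SP/KLF match, and 1 E-box. VAV3, which encodes a guanine nucleotide exchange factor, here also at a start inside the gene, held 1 AP-1 and 1 NFY match. All 6 promoters except that of PHC2 overlapped a peak on a FOXA1 site of the line, where peaks of both FOXA1 replicates merge into 1 region. The printed windows of AGR2, STS, FLOT1 and PHC2 reached beyond their peaks, that of STS from 7251994 with the peak from 7252147. The peaks at AGR2 and BROX lay 0.882 and 0.574 kb from a peak of the other replicate. None of the 6 printed promoters held the forkhead letters, which describes these windows alone.

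One-replicate peaks were low in their list and narrow. Their median score, the authors' own value per peak, was 9.79 against 42.3 for shared peaks in MDA-MB-453 and 9.0 against 39.2 in T47D. Their highest scores were 73.1 against 398 in MDA-MB-453 and 78.3 against 654 in T47D. As a percentile of the list, where 100 is the top score, the median was 26.7 against 74.3 in MDA-MB-453 and 29.1 against 76.6 in T47D. The highest one-replicate peak reached percentile 86.0 in MDA-MB-453 and 88.2 in T47D, so the top of both lists was shared throughout. A one-replicate peak outranked a shared peak in 0.0807 of all such pairs in MDA-MB-453 and in 0.0856 in T47D, where 0.5 would mean no difference in rank.

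Median widths of one-replicate peaks were 304 bp against 520 bp for shared peaks in MDA-MB-453 and 309 bp against 567 bp in T47D. Wider than the median shared peak were 1087 one-replicate peaks (5.20%) in MDA-MB-453 and 2230 (6.77%) in T47D. Together the one-replicate peaks covered 6857 kb against 12313 kb of shared peaks in MDA-MB-453, and 11400 kb against 18483 kb in T47D. When the longer list was cut by score to the length of the shorter one, 22706 peaks in MDA-MB-453 and 30170 in T47D, the remainder still held 3978 one-replicate peaks (17.5%) and 6026 (19.97%).

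**Figure D1:**
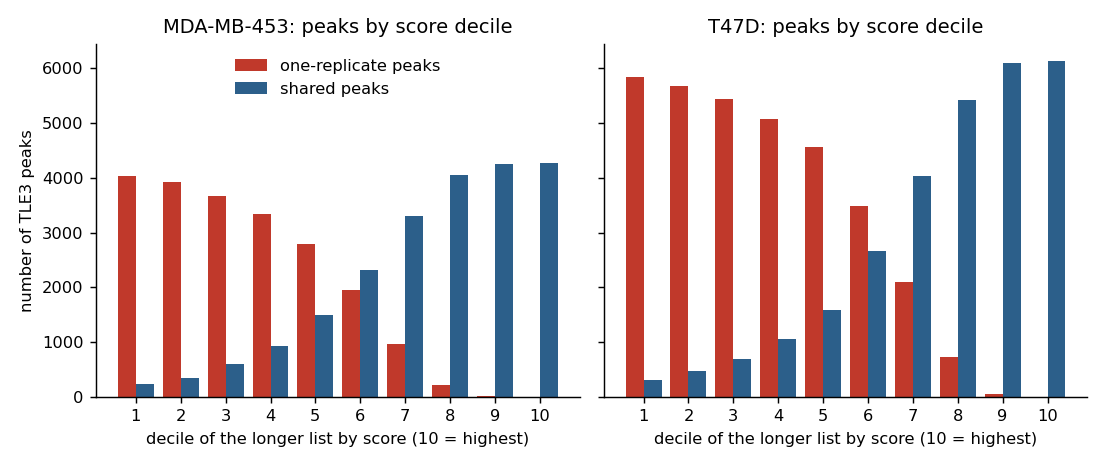
Number of one-replicate (red) and shared (blue) TLE3 peaks in each decile of the longer list by score, 10 being the highest, in MDA-MB-453 (left) and T47D (right). One-replicate peaks made up 94.4% of the lowest decile in MDA-MB-453 and 95.1% in T47D, and 0 peaks of the highest decile in both.

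The plot of peak numbers by score shows both lines changing from mostly one-replicate to mostly shared peaks near the middle. One-replicate peaks made up 45.9% of the sixth decile in MDA-MB-453 and 34.3% of the seventh in T47D. Few members owed their class to a small gap. Only 32 in MDA-MB-453 and 124 in T47D lay within 100 bp of a peak of the other replicate, the nearest at 2 bp in each line. These just-missed peaks had median percentiles of 15.9 and 18.8. Just across the limit, 26 and 96 shared peaks touched the other replicate by 100 bp or less, with median percentiles of 11.6 and 18.4. The median gap to the other replicate was 29.3 kb in MDA-MB-453 and 20.7 kb in T47D, and 3882 (18.6%) and 4276 (13.0%) members lay over 100 kb away.

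FOXA1 occupied most one-replicate peaks, but fewer of them than of shared peaks, and the gap was wide in T47D. On a FOXA1 site of the line lay 94.1% of one-replicate peaks (95% exact binomial interval 93.7 to 94.4) against 99.3% of shared peaks (99.2 to 99.4) in MDA-MB-453, where 96.7% of the whole list did. In T47D it was 57.7% (57.2 to 58.2) against 86.9% (86.5 to 87.3), where 71.2% of the whole list did. The intervals cover counting error only, since all peaks of a line came from 1 library with no replicate of the contrast. A one-replicate peak free of any FOXA1 peak of its line was rare in MDA-MB-453, with 501 (2.40%) against 50 shared ones. In T47D there were 9353 (28.4%) against 1830 (6.44%).

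Each FOXA1 replicate gave the same order. MDA-MB-453 FOXA1 replicate 1 covered 97.2% of one-replicate peaks against 99.7% of shared peaks, and replicate 2 covered 94.0% against 99.3%. The MDA-MB-453 difference in percentage points was -5.27 with both replicates required and -2.56 with replicate 2 left out, so that library decided its size. T47D FOXA1 replicate 1 covered 68.7% against 92.9%, and replicate 2 covered 59.4% against 87.3%. Over the 6 FOXA1 libraries of all 3 lines, coverage of one-replicate peaks averaged 70.0% ± 20.2 against 83.7% ± 12.8 for shared peaks in MDA-MB-453 (SD, 6 libraries). In T47D it averaged 56.0% ± 9.74 against 80.5% ± 9.63.

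The mean difference was -13.7 ± 7.62 percentage points in MDA-MB-453 and -24.5 ± 2.07 in T47D, negative in 6 of 6 libraries each time. An exact two-sided sign-flip permutation test over the 6 libraries gave p = 0.0313 in each line, the smallest value its 64 arrangements allow, and 0.0313 after Benjamini-Hochberg adjustment over 3 tests. The third test, which was not in the plan, set the lines against each other. The T47D difference was lower than the MDA-MB-453 difference by a mean of 10.9 points, in 6 of 6 libraries (p = 0.0313, exact sign-flip permutation). The libraries were not alike in this. T47D minus MDA-MB-453 was -18.9 and -19.1 in the MDA-MB-453 FOXA1 libraries, and between -7.94 and -6.17 in those of SKBR3 and T47D. A library of MDA-MB-453 or T47D is of the own line for only 1 of the TLE3 lists compared. Both FOXA1 libraries of a line share their cells. With each pair flipped together, the smallest p possible is 0.25, and all 3 tests stood there. The size of the means depended on score: within score deciles they were -2.51 points in MDA-MB-453 and -9.37 in T47D.

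The FOXA1 peaks under one-replicate peaks also ranked lower within their own lists. The best MDA-MB-453 FOXA1 peak under a one-replicate peak had a median percentile of 79.8 against 92.6 under shared peaks in replicate 1, and 75.7 against 90.9 in replicate 2. In T47D the medians were 65.9 against 87.4 in replicate 1 and 67.0 against 86.9 in replicate 2. A FOXA1 peak from the top 10% of its list lay under 19.8% of FOXA1-covered one-replicate peaks against 61.6% of shared ones in MDA-MB-453 replicate 1. In T47D replicate 1 it was 11.3% against 43.1%.

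**Figure D2:**
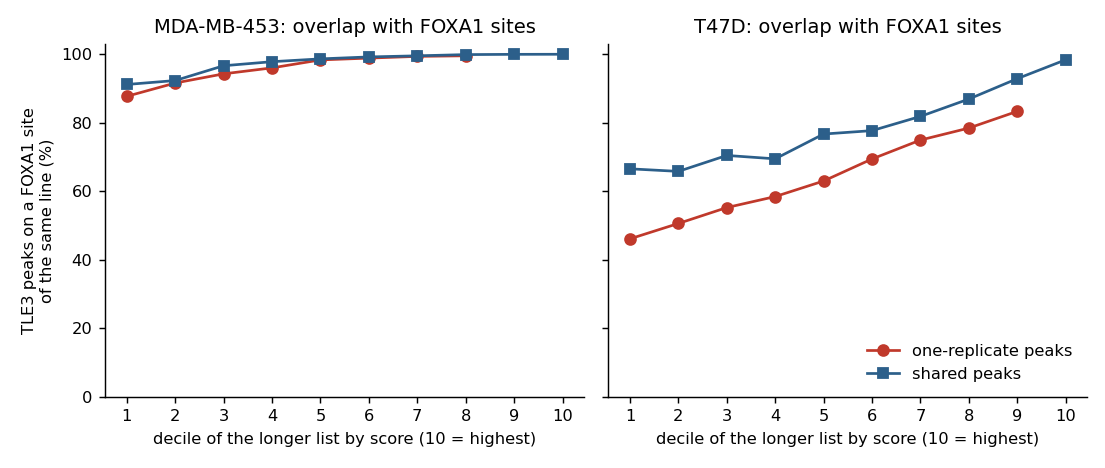
Percent of one-replicate (red) and shared (blue) TLE3 peaks on a FOXA1 site of the same line, by decile of the longer TLE3 list by score (10 is the highest), in MDA-MB-453 (left) and T47D (right). Deciles with fewer than 20 peaks of a class have no point for it, and in T47D the red points lie below the blue ones in every decile shown.

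Score and FOXA1 moved together, so the comparison was repeated among peaks of like score, as the plot of FOXA1 overlap by score shows. In MDA-MB-453 the difference between the classes lay between -3.46 and -0.17 percentage points in the 8 deciles that held at least 20 peaks of each class. In T47D the lowest decile had 46.1% of one-replicate peaks on FOXA1 sites against 66.6% of shared peaks. The ninth decile had 83.3% against 92.9%, but held only 48 one-replicate peaks. Averaged over deciles with equal weight, the difference was -1.19 points in MDA-MB-453 and -12.1 in T47D, smaller than without the split in both lines. With width deciles crossed in, it was -0.89 and -10.6.

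One-replicate peaks were found less often in other lines too. At least 1 of the 4 TLE3 lists of the other lines held 55.2% of one-replicate peaks (54.6 to 55.9) against 75.8% of shared peaks (75.3 to 76.4) in MDA-MB-453, where 65.7% of the whole list overlapped. In T47D it was 51.4% (50.8 to 51.9) against 77.3% (76.8 to 77.8), and 63.4% of the whole list. The library labelled SKBR3 TLE3 replicate 2 stood apart from the other TLE3 lists. Its 94363 peaks overlapped SKBR3 TLE3 replicate 1 in 7.54% and SKBR3 FOXA1 sites in 21.7%, whereas the other 5 TLE3 lists lay on FOXA1 sites of their line in 71.2% to 98.5% of peaks. Without that library the differences were -23.0 points in MDA-MB-453 and -36.7 in T47D, against -20.6 and -25.9 with it. Among peaks of like score the differences over all 4 lists were smaller, at -7.41 in MDA-MB-453 and -8.21 in T47D within score deciles. Within score and width deciles together they were -4.19 and -3.50.

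By list, T47D TLE3 replicate 1 covered 26.5% of MDA-MB-453 one-replicate peaks against 53.7% of shared peaks, and T47D replicate 2 covered 46.98% against 70.6%. SKBR3 TLE3 replicate 1 covered 16.9% against 37.5%. Of T47D one-replicate peaks, MDA-MB-453 TLE3 replicate 1 covered 24.5% against 59.5% of shared peaks, replicate 2 covered 11.7% against 41.0%, and SKBR3 replicate 1 covered 10.6% against 35.6%. SKBR3 TLE3 replicate 2 was the exception, with 18.0% of both classes in MDA-MB-453 and 28.0% against 30.6% in T47D. It covered more of the one-replicate peaks without FOXA1 of their line than of those on FOXA1 sites. The shares were 45.3% against 16.6% in MDA-MB-453 and 34.1% against 24.2% in T47D. Shared peaks had the same order, with 48.0% against 17.8% in MDA-MB-453 and 47.3% against 28.1% in T47D.

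**Figure D3:**
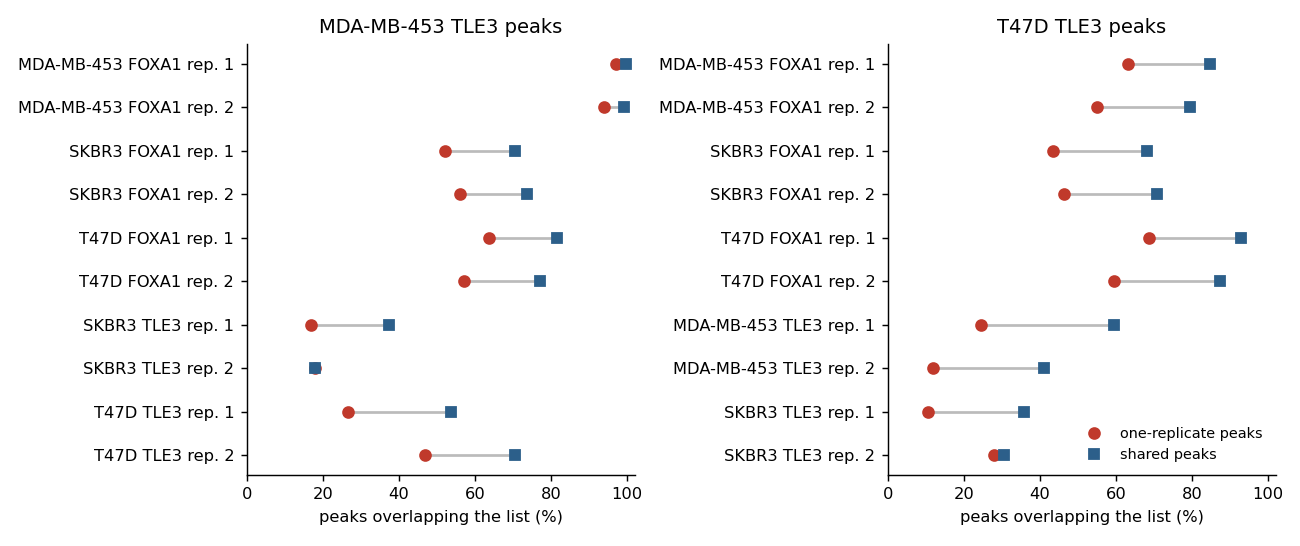
Percent of one-replicate (red circles) and shared (blue squares) TLE3 peaks of MDA-MB-453 (left) and T47D (right) that overlap each of 10 other peak lists, named by line, factor and replicate. The red point lies left of the blue one for all lists but SKBR3 TLE3 replicate 2 in MDA-MB-453, where both stand at 18.0%.

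The plot of overlap with each list shows how many lists had the same order. Some one-replicate peaks recurred widely: 840 (4.02%) in MDA-MB-453 overlapped all 4 TLE3 lists of the other lines, against 10.6% of shared peaks, and 253 (0.768%) did so in T47D, against 8.26%. Among MDA-MB-453 one-replicate peaks, 4236 (20.3%) overlapped a one-replicate peak of T47D and 5604 (26.8%) a shared one. Among T47D one-replicate peaks, 4238 (12.9%) overlapped a one-replicate peak of MDA-MB-453 and 3848 (11.7%) a shared one. By the mean of the percentiles in both lines, the highest ranked place where both had a one-replicate peak lay 204796 bp from PRICKLE1, a planar cell polarity gene, at percentiles 69.1 in MDA-MB-453 and 86.2 in T47D. The next were 19104 bp from NMD3, a ribosome export factor, and inside PTPRJ, a receptor tyrosine phosphatase, all on FOXA1 sites in both lines.

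One-replicate peaks lay more often at gene ends, with the centre at most 1 kb from where a gene starts or stops. The share was 11.4% (10.96 to 11.8) against 7.91% of shared peaks (7.55 to 8.27) in MDA-MB-453, with 9.61% in the whole list. In T47D it was 23.5% (23.1 to 24.0) against 18.4% (17.9 to 18.9), with 21.2% in the whole list. Averaged over score deciles with equal weight, the difference turned to -0.73 percentage points in MDA-MB-453 and was 0.0659 in T47D. By decile the difference ran from -2.68 to 0.512 in MDA-MB-453 and from -3.75 to 4.16 in T47D. The decile at -3.75 held only 48 one-replicate peaks. Among peaks of like width it was larger, at 4.56 points in MDA-MB-453 and 16.8 in T47D. Within score and width deciles together it was 0.448 and 6.16. In the widest decile of the T47D list, 66.8% of the 389 one-replicate peaks lay at a gene end against 29.4% of the shared peaks.

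**Figure D4:**
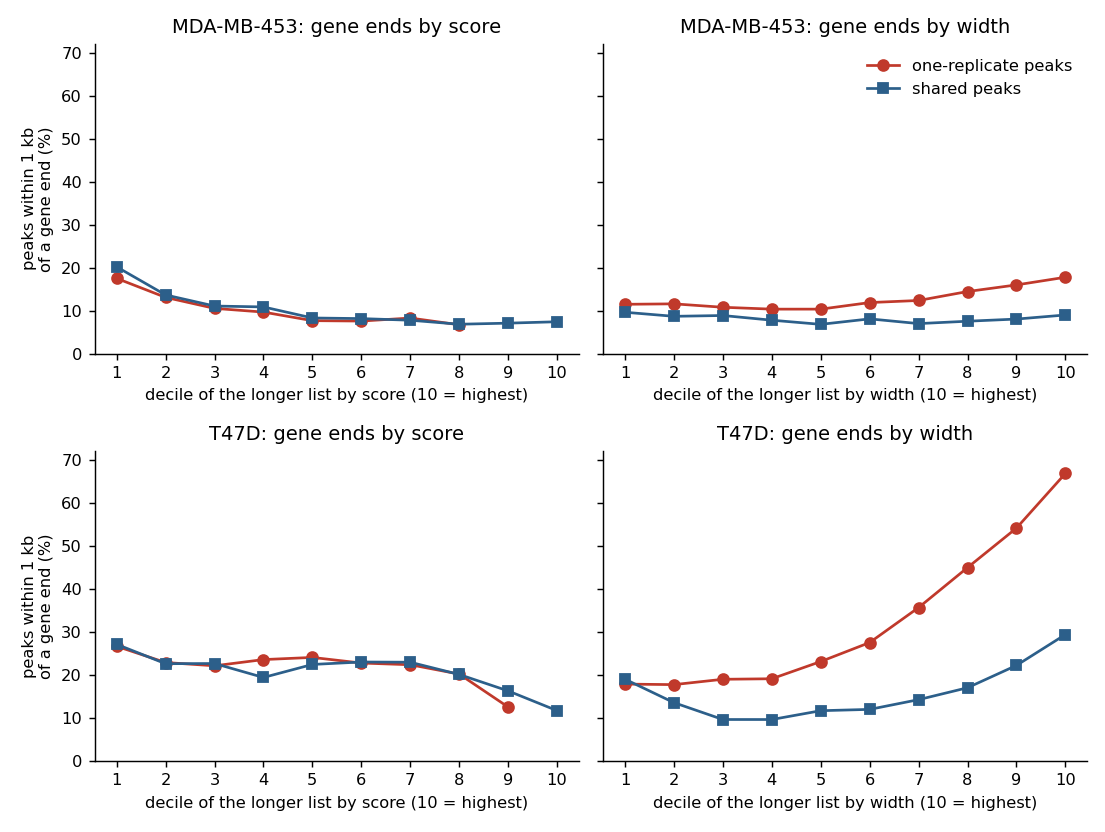
Percent of one-replicate (red) and shared (blue) TLE3 peaks within 1 kb of a gene end, by decile of the longer list by score (left) and by width (right), for MDA-MB-453 (top) and T47D (bottom). In the widest decile of T47D, 66.8% of one-replicate peaks lay at a gene end against 29.4% of shared peaks.

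Among one-replicate peaks, those without FOXA1 of their line were more often at gene ends and covered promoters richer in GC. Shared peaks had the same order. Of one-replicate peaks with no FOXA1 peak, 34.5% lay at gene ends in MDA-MB-453, against 10.2% of those on FOXA1 sites. In T47D it was 29.9% against 19.4%. Of shared peaks, the same shares were 36.0% against 7.72% in MDA-MB-453 and 37.8% against 15.5% in T47D. The T47D one-replicate peaks without FOXA1 covered 1487 annotated promoters of the RefSeq table free of shared peaks, 250 bases before to 50 after a start, with a median GC content of 71.7%. Of these promoters 85.1% held an SP/KLF match, as in PHC2 above, and 0.134% a forkhead match. Those on FOXA1 sites covered 2339 promoters with a median GC content of 63.7%, of which 71.9% held an SP/KLF match and 4.06% a forkhead match. Across all 22132 promoters the median GC content was 62.3%, 56.3% held an SP/KLF match and 2.85% a forkhead match. In MDA-MB-453, 99 promoters under one-replicate peaks without FOXA1 had 91.9% with SP/KLF and 0 with forkhead letters, and 701 promoters under those on FOXA1 sites had 69.9% and 6.70%. Promoters under shared T47D peaks had median GC contents of 73.7% without FOXA1 and 66.3% on FOXA1 sites.

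The highest scored one-replicate peaks lay mostly away from gene ends. In MDA-MB-453 the top one, at chrX:12689263-12689981 (score 73.1), lay in FRMPD4, which encodes a scaffold protein of synapses, on a FOXA1 site. The next that recurred in other lines lay in SDK2, a cell adhesion gene (chr17:73427179-73427632, score 67.8), and overlapped 3 TLE3 lists of other lines. At gene ends, a peak 53 bp from an end of BOC, a coreceptor of hedgehog signalling, scored 45.0. The highest without a FOXA1 peak of MDA-MB-453 lay in GRIK4, a glutamate receptor gene, scored 38.7 and overlapped all 4 TLE3 lists of the other lines. HSPB7, CELSR1 and CHTF18 had the next ones, also in all 4. In the other lines, the peaks in GRIK4 and CELSR1 overlapped both FOXA1 lists of SKBR3 and both of T47D. That near HSPB7 overlapped SKBR3 FOXA1 replicate 1, and that in CHTF18 no FOXA1 list.

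In T47D the top one-replicate peak, at chr19:7102404-7102786 (score 78.3), lay 9670 bp from INSR, the insulin receptor gene, and 94.8 kb from the nearest peak of the other replicate. No T47D FOXA1 peak covered it. The peak in SLC16A12 (chr10:89466583-89467254, score 66.1) lay on a FOXA1 site and 8.30 kb from the other replicate. At gene ends, the peak over the BROX promoter, 305 bp inside the neighbouring gene AIDA, scored 59.5, and that at TRIM11, a ubiquitin ligase gene, scored 57.3. These lay 0.574 and 5.23 kb from the other replicate. Of the T47D FOXA1 lists, only replicate 1 overlapped the BROX peak itself. PHC2 (57.0), SLC25A27 (54.7), ODC1, the ornithine decarboxylase gene (53.2), and VKORC1L1 (51.1) had the highest peaks without T47D FOXA1 after INSR. FOXA1 lists of other lines overlapped the peaks of INSR, PHC2 and ODC1, but not those of SLC25A27 and VKORC1L1.

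IRF2BPL had the most one-replicate peaks within 50 kb in MDA-MB-453, with 11 against 2 shared peaks. CCDC148, DUSP16, a phosphatase of MAP kinases, F5, the coagulation factor V gene, NHSL3 and YARS1 tied at 10, against 5, 1, 3, 1 and 1 shared peaks in that order. In T47D, DCST2 had 17 against 6 shared peaks. CBX8, a Polycomb chromobox gene, CLDN7, a tight junction claudin of epithelia, ELP5 and ZBTB7B tied at 16, against 6, 5, 5 and 4 shared peaks in that order. These genes were picked for the count, so it is a description. Neighbouring genes share such peaks.

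Genes that had a one-replicate but no shared peak within 50 kb were 4090 of 19974 protein-coding genes in MDA-MB-453 (20.5%) and 3270 in T47D (16.4%). A shared peak lay near 53.4% of all protein-coding genes in MDA-MB-453 and 73.4% in T47D. Of luminal identity genes, 20 of 22 and 22 of 22 had one, in that order. In MDA-MB-453, 2 of 22 rested on one-replicate peaks alone, TFAP2C, the AP-2 gamma factor of luminal cells (percentile 41.0, 823 bp from its end), and MUC1, the mucin (percentile 4.52). In T47D it was 0 of 22. Of 18 estrogen response genes, 0 in MDA-MB-453 and 1 in T47D, the chemokine gene CXCL12 (percentile 39.2), were of this kind, and of 13 androgen response genes 1, ZBTB16, and 0. Most luminal genes still had one-replicate peaks beside shared ones, 18 of 22 in MDA-MB-453 and 22 of 22 in T47D. Of all 19974 protein-coding genes, 7563 in MDA-MB-453 and 13149 in T47D had both. Any one-replicate peak lay near 20 of 22 in MDA-MB-453, where 58.3% of all protein-coding genes had one, and near 22 of 22 in T47D, where 82.2% did.

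Beside shares of 20.5% of all protein-coding genes in MDA-MB-453 and 16.4% in T47D, basal identity genes had one-replicate peaks alone in 2 of 15 in MDA-MB-453, among them the keratin gene KRT17 (percentile 66.3). In T47D it was 3 of 15, VIM (64.7), KRT5 (45.3) and CAV1 (29.9), of which only VIM had its peak on a FOXA1 site. EMT and TGF-beta genes counted 2 of 19 in MDA-MB-453, SMAD4 and CDH2, and 4 of 19 in T47D, among them the receptor gene TGFBR1 (74.3) and TWIST1 (48.5).

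For the partners and machinery of TLE3, 3 of 20 Groucho partner genes were of this kind in MDA-MB-453, PAX2, HEY1 and TCF7, and 1 of 20 in T47D, RUNX3. Corepressor genes counted 3 of 18 (16.7%) in both lines, near the 20.5% of all genes in MDA-MB-453 and the 16.4% in T47D. HDAC3, the deacetylase of NCOR complexes, was among them in both, at percentiles 10.7 in MDA-MB-453 and 73.1 in T47D. The others were SIN3A and CTBP1 in MDA-MB-453, and SIN3B and TLE4, another Groucho gene, in T47D. WNT feedback genes counted 2 of 14 in MDA-MB-453 and 5 of 14 in T47D. Both lines had SP5, a WNT target factor, and CTNNB1, the beta-catenin gene, and in T47D NKD1, a WNT inhibitor, had the highest peak (74.95).

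The highest shares in MDA-MB-453 were in genes used by all cells. There, 9 of 22 cell cycle genes had one-replicate peaks alone, 8 of 23 ribosomal protein genes and 7 of 20 housekeeping genes. These shares were 40.9%, 34.8% and 35.0%, beside 20.5% of all protein-coding genes in that line. In T47D these counts were 4 of 22, 4 of 23 and 5 of 20, beside 16.4% of all genes. MCM3, a subunit of the replicative helicase, had such a peak at the same place in both lines, chr6:52286888-52287293 in MDA-MB-453 and chr6:52286911-52287252 in T47D. Housekeeping peaks close to a gene end were those of PPIA (170 bp) in MDA-MB-453 and PGK1 (172 bp) and TUBA1B (181 bp) in T47D. Immediate early genes counted 5 of 22 in MDA-MB-453 (22.7%, near the 20.5% of all genes), led by the nuclear receptor gene NR4A1 (79.5). In T47D it was 1 of 22, EGR2. Genes of other cell types counted 7 of 24 (29.2%) in MDA-MB-453, among them UMOD, INS and CDH5, and 2 of 24 in T47D, MYOD1 and NEUROD1. No expression was measured, so these counts describe peaks near genes and not their transcription.

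**Figure D5:**
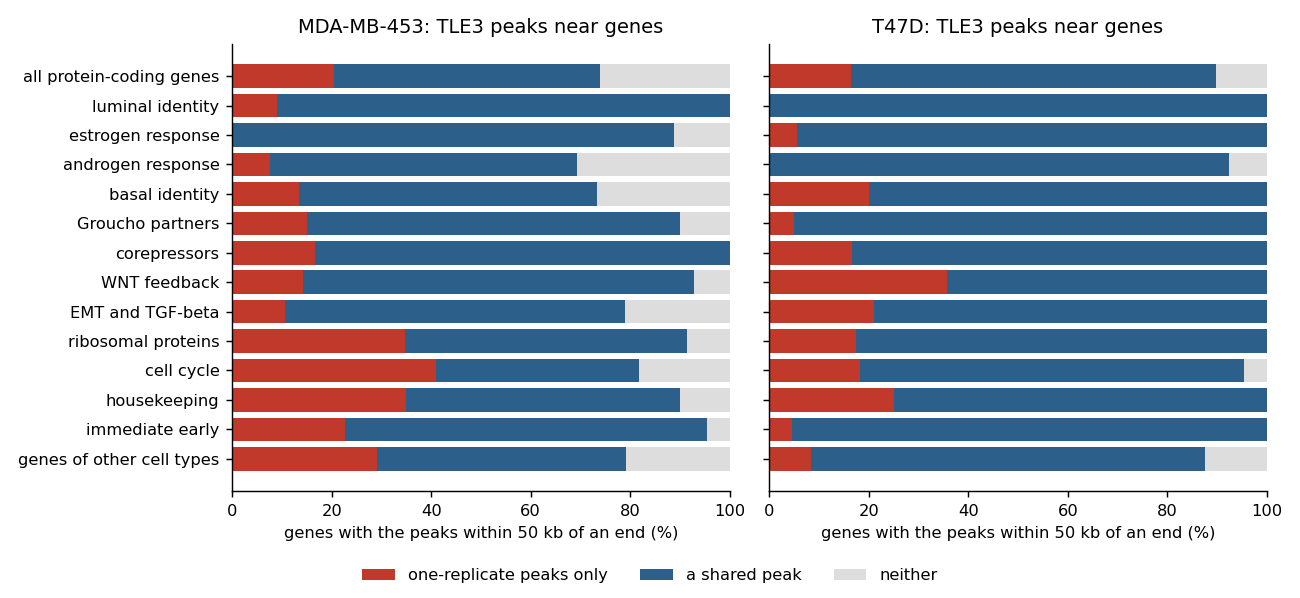
Percent of the genes of each list with one-replicate TLE3 peaks alone (red), a shared peak (blue) or neither (grey) within 50 kb of an end, in MDA-MB-453 (left) and T47D (right), with all 19974 protein-coding genes on top. Luminal identity genes stood at 2 of 22 for one-replicate peaks alone in MDA-MB-453 and 0 of 22 in T47D.

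The plot of gene lists sets these counts beside those of all genes. The lists are small, and gene length and neighbourhood were not matched.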

How the data were processed

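The 12 deposited peak lists, 1 for each TLE3 or FOXA1 library, were the starting point. The submitters' processing notes name hg38 as the build and MACS2, SAMtools, BWA 0.7.5a and Trim Galore as tools. For the caller, no setting, threshold or control is given in the sources used here. The deposited lists hold coordinates and a score per peak, set by the authors. The sources do not name the quantity, so it ranked peaks within a list only. No counts or summits are given, so depth is unknown and peak number can follow depth. Of all peaks, 15 outside chromosomes 1 to 22 and X were left out. No library was pooled.

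Peak centres were set against the RefSeq gene table (GRCh38.p14, the same build), with 59098 genes. All 250 entries of the 13 gene lists matched. Named peaks were the 5 highest scored of each kind per line (all, at gene ends, without FOXA1, in 2 or more other TLE3 lists, or in both lines), the 5 genes with most peaks, and up to 3 genes of each list by best percentile. Some are printed, and a few named genes are not reported here. Promoters came from the RefSeq table for 6 of the 8 chosen. Members and lists were chosen with earlier results of these data known. Peaks of 1 list are not replicates, so shares carry exact binomial 95% intervals, and an exact sign flip over 2 lines could not go below p = 0.5. The only test was an exact sign flip over 6 FOXA1 libraries, at a threshold of 0.05. It set the same peak classes of 1 TLE3 library per line against each FOXA1 list, so it does not replicate the classes. Benjamini-Hochberg adjustment was over 3 tests, with the difference between lines included. The plan named the test for each line alone, and the difference between lines was not in it. Alternatives covered the score, width, overlap rule, gene window and each library. Python 3.11.15, numpy 2.4.6, pandas 2.3.3 and SciPy 1.17.1 were used, and the scripts were tested on simulated data.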

Additional observations from a re-analysis of the deposited data

Results flagged for a closer look

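The T47D difference in FOXA1 overlap between one-replicate and shared peaks was larger than the MDA-MB-453 difference in each of the 6 FOXA1 libraries. The T47D minus MDA-MB-453 value was -10.9 ± 6.33 percentage points (SD over 6 libraries, p = 0.0313 by exact sign-flip permutation, the smallest possible). With both libraries of a line flipped together the call was lost, at an exact p of 0.25, the smallest that 3 lines allow. By library the T47D minus MDA-MB-453 value lay between -19.1 and -6.17, and the test between lines was not in the plan. Within deciles of peaks by score the mean was -6.87, negative in 6 of 6 libraries. These deciles were those of each line's own list, 9 of them used in T47D and 8 in MDA-MB-453, so their scores were not matched between lines. Whole lists differed as well, with 71.2% of T47D and 96.7% of MDA-MB-453 TLE3 peaks on FOXA1 sites of the line. The MDA-MB-453 FOXA1 libraries covered 94.0% and 97.2% of one-replicate peaks of that line, against 99.3% and 99.7% of shared peaks. For T47D minus MDA-MB-453, the MDA-MB-453 FOXA1 libraries gave the lowest values, -18.9 and -19.1. SKBR3 FOXA1 replicate 1 gave -6.56 and replicate 2 gave -6.65, and the T47D FOXA1 libraries gave -6.17 and -7.94.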

How the results depend on the processing

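Of 107 alternatives, 44 left a value within its 95% counting interval or kept its call, 41 moved it, 21 ended a call and 1 turned a direction. For rank and width the interval was an exact binomial one over the one-replicate peaks, which for rank is an approximation. Values are percentage points, one-replicate minus shared. The FOXA1 site difference of MDA-MB-453 (-5.27) was -0.71 in the upper 50% of the list by score, -1.19, -2.35 and -0.89 within deciles by score, by width and by both, -2.17 with a FOXA1 peak of either replicate, -4.17 away from gene ends, and -5.30 to -2.56 with 1 FOXA1 library left out. That of T47D (-29.2) was -17.1, -12.1, -19.6, -10.6 and -21.9 in the same order through either replicate, -28.5 with centres within 250 bp, and -28.0 to -24.2 with a library left out. Gene ends in MDA-MB-453 (3.48) gave 0.328 in the upper 50%, -0.73, the reversed value, by score, 4.56 by width and 0.448 by both, and the cause was not tested. In T47D (5.15) they gave 4.45, 0.0659, 16.8 and 6.16, with 6.39 for centres within 250 bp and 4.46 for members over 1 kb from the other replicate. Overlap with TLE3 of other lines in MDA-MB-453 (-20.6) was -16.1, -7.41, -7.21 and -4.19 under the same 4 settings and -23.0 to -20.6 without a library. In T47D (-25.9) it was -18.1, -8.21, -8.61 and -3.50, with -24.6 for centres within 250 bp and -36.7 to -25.1 without a library. With centres within 250 bp, the probability of outranking a shared peak came to 0.0858 (MDA-MB-453) and 0.0974 (T47D), and the share wider than the median shared peak was 6.30% and 9.32%. The deciles crossed and the peaks away from gene ends were added after seeing the data.

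The sign-flip means stayed negative. They were -7.31, -15.6 and -8.25 in the upper 50% by score (MDA-MB-453, T47D, T47D minus MDA-MB-453) and -2.51, -9.37 and -6.87 within score deciles, each at p = 0.0313 by exact sign flip. With 1 FOXA1 library left out they lay from -15.9 to -12.4 in MDA-MB-453, from -25.2 to -23.9 in T47D and from -11.8 to -9.25 for T47D minus MDA-MB-453, and p could not go below 0.0625, so all lost their call. With the libraries of a line flipped together, -13.7, -24.5 and -10.9 had an exact sign-flip p = 0.25, the smallest possible. No paired analysis was possible because replicate numbers mark nothing shared between lines or factors, and the sign flip pairs both classes by FOXA1 library instead.

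Depth is unknown, so a peak missing from the shorter list cannot be told apart from one under that library's detection limit. Each contrast rests on 1 TLE3 library per line. Score and width differ between the classes and were not fully matched, since the highest decile of T47D and the highest 2 of MDA-MB-453 held fewer than 20 one-replicate peaks.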

Other observations

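The shorter lists held few peaks of their own. Only 677 peaks (2.98%) of MDA-MB-453 TLE3 replicate 2 and 964 (3.20%) of T47D TLE3 replicate 1 overlapped no peak of the longer list. They too were low, at median percentiles of 8.53 in MDA-MB-453 and 11.8 in T47D. On FOXA1 sites lay 72.1% of them in MDA-MB-453 and 50.1% in T47D.

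One-replicate peaks were spread over all chromosomes. Their share of the list ran from 45.3% on chromosome 14 to 53.8% on chromosome 19 in MDA-MB-453, and from 49.8% on chromosome 21 to 58.3% on chromosome X in T47D. The 1 Mb bin with most of them in MDA-MB-453 was chr10:77000001-78000000, which holds KCNMA1 and DLG5, with 29 against 21 shared peaks.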
